A study of Rattus norvegicus with 4 samples.

Results

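Zinc finger loci are described here in rat cortical astrocytes, with and without a brief loss of oxygen and glucose. The members are long noncoding RNA (lncRNA) loci whose gene name begins with Zfp, Znf, Zbtb, Zscan, Zkscan, Zfhx, Zeb, Klf or Plag. The rule used names alone and no measured value, but it was chosen with earlier results of these data known, and it mentions Plagl2. The shares of members set against all loci are therefore description. The rule found 77 loci among 17849 in the deposited tables, holding 106 of 20524 listed transcripts. By prefix, 64 were Zfp or Znf loci, 4 Zbtb, 4 Klf, 2 Plag, 2 Zkscan and 1 Zfhx. A Zeb name was matched by 0 loci, and a Zscan name by 0.

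The cells were astrocytes of neonatal Wistar rat cortex, grown on coverslips over neurons and kept apart from them by paraffin dots. The 2 control libraries are labelled untreated. For the other 2 libraries the labels give 45 min of oxygen and glucose deprivation (OGD), in glucose-free medium at 1% oxygen, and 24 h back in normal medium and air, which the series calls ischemic preconditioning. The labels do not say whether the libraries came from separate cultures or how many animals were pooled, so the p-values reflect library-to-library spread alone, possibly technical.

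Zinc finger transcription factors grip DNA through small loops that are each folded around a zinc ion. Many carry a KRAB domain and silence chromatin through the corepressor Trim28, whereas BTB-domain factors recruit nuclear corepressors, Klf factors bind GC-rich and CACCC sequences, and the Plag family activates growth-related genes. In brain, several of them act in neuronal and glial differentiation and in genomic imprinting.

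The name prefix is broader than the label of transcription factor. Zfp294, current symbol Ltn1, encodes the ubiquitin ligase listerin of ribosome quality control. Zbtb8os encodes archease, a cofactor of the transfer RNA ligase, and Zfp207 encodes BuGZ, a protein of the mitotic spindle. The RefSeq table of assembly GRCr8 held 76 of the 77 names, 70 as a current symbol and 6 as a former one, and all 76 were protein-coding genes on the chromosome given in the tables. The exception was Zfp553. These 76 members are thus listed noncoding transcripts that share the name of a coding gene, and whether messenger RNA reads entered their counts was not tested.

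All 106 transcripts carry NONCODE identifiers. The names of 29 carry the word unspliced. Among these are the only listed transcripts of Plagl2, Zbtb4, Zfp445, Zfp580 and Zfp629. Lengths ran from 219 to 3245 bases, with a median of 620.5. A single transcript was listed at 57 members, and 2 to 4 at the other 20. A transcript of another locus overlapped 17 members, so that reads there cannot be told apart without knowing how strand was counted.

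The largest difference among tested members was at Plagl2, and its promoter is shown beside that of its relative Plagl1, whose groups overlapped, and that of Zbtb4, the member with the highest level. The sequences are the 250 bases before the RefSeq gene start in assembly GRCr8, written 5′ to 3′ on the strand of the gene. Capitals mark the GC box GGGCGG or its reverse complement CCGCCC, with overlapping matches joined.
Plagl2 (chr3:162168749-162168998, minus strand): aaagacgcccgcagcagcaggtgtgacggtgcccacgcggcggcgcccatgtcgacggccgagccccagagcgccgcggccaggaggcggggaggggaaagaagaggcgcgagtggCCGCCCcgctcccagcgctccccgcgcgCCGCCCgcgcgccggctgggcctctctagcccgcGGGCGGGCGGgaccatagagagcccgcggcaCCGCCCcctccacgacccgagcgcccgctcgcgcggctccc
Plagl1 (chr1:9297214-9297463, plus strand): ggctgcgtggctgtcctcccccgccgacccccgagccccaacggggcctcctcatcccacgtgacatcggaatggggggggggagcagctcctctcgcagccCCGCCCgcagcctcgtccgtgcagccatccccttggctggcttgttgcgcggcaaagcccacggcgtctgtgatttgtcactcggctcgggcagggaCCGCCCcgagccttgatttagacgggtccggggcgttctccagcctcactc
Zbtb4 (chr10:54984036-54984285, plus strand): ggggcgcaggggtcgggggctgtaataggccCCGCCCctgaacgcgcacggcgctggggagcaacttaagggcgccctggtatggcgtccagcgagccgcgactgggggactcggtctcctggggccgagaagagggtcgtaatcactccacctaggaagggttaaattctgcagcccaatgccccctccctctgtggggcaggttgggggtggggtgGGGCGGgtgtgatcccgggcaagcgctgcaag

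The Plagl2 window held 5 GC boxes, counting overlapping matches on both strands, against 2 at Plagl1 and 2 at Zbtb4. Its GC content was 79.6%, against 70.0% at Plagl1 and 68.0% at Zbtb4. The core of the hypoxia response element, ACGTG or CACGT, had 0 matches at Plagl2, 2 at Plagl1 and 0 at Zbtb4. Those at Plagl1 overlap within a single stretch, CACGTG, read on both strands. Promoters were listed for 66 members. A GC box was present in 20 of these (30.3%) and in 32.4% of all 27457 promoters, a hypoxia core in 10 (15.2%) against 16.9%, and the CACCC box (CACCC or GGGTG) in 41 (62.1%) against 49.4%. Median GC content was 54.4% in the members and 52.0% in all promoters. These are matches of letters near the start of the coding gene, and the start of the listed noncoding transcript is not known to be the same.

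The libraries held 2513804 to 2646300 lncRNA counts each. Zinc finger loci took 8640 and 7519 of them in control 1 and 2, and 8539 and 7739 in OGD 1 and 2, which is 0.331%, 0.286%, 0.323% and 0.308% of the listed counts. Across all 9898 loci with enough counts to be tested, libraries of the same replicate number were closest. Pearson r on log2 CPM (counts scaled to the size of the library) was 0.892 between the number 1 libraries and 0.893 between the number 2 libraries, against 0.864 between controls and 0.870 between OGD libraries. At the 49 tested zinc finger loci the order differed, with 0.944 and 0.933 for the same numbers, 0.946 for the controls and 0.961 for the OGD libraries. Each r is over loci, and loci are not replicates. Of the 10 astrocyte marker names, 5 had a listed locus, led by the filament gene Gfap with 100, 61, 139 and 51 counts. Sums over astrocyte markers were 34.4 to 51.0 CPM in control and 33.8 to 64.6 CPM after OGD. Fibroblast and meningeal names, 3 of 7 listed, summed to 681 to 1743 and 1097 to 1590 CPM. Most of this was Fn1, with means of 959 CPM in control and 1088 CPM after OGD. Neuron names, 4 of 10 listed, summed to 84.2 to 112 and 108 to 114 CPM. Most of this was Gria2, with means of 95.6 and 81.7 CPM. Microglia and macrophage names summed to at most 43.6 and 35.9 CPM. Oligodendrocyte lineage names summed to 8.02 to 17.2 and 7.93 to 10.0 CPM. These sums cover listed noncoding loci alone, so they do not give shares of cell types.

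Which zinc finger loci differ between preconditioned and untreated astrocytes was asked with edgeR's quasi-likelihood test, fitted over all loci. Of the 77 members, 49 had enough counts. By the Benjamini-Hochberg adjusted p, 0 of the 49 passed, against 0.0606% of all loci (6 of 9898), with 0.0404% higher and 0.0202% lower after OGD. At an unadjusted p under 0.05 there was 1, Plagl2, which is 2.04% of the members, against 2.49% of all loci, 1.28% on the higher side and 1.2% on the lower. With 2-fold or more required as well it was again Plagl2, against 1.89% of all loci, 0.97% higher and 0.919% lower. DESeq2 called 1 of the 49, again Plagl2, against 0.618% of the loci to which it gave an adjusted p.

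Plagl2 encodes a factor of the Plag family that activates growth-related genes such as Igf2. Its only listed transcript, of 2941 bases, carries the word unspliced in its name. It lies on chromosome 3, 148709556 to 148712496 (positions from the deposited tables, which name no build). Its counts were 74 and 35 in control 1 and 2, and 304 and 268 in OGD 1 and 2. Both OGD libraries were above both controls, and the controls lay further apart than the OGD libraries. In CPM, normalised by edgeR's TMM scaling, the values were 27.0 and 14.0 in the controls, against 115 and 112 after OGD.

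The mean at Plagl2 was 20.5 ± 9.17 CPM in the controls, against 113 ± 2.10 CPM after OGD (SD, n = 2 per group). The log2 fold change was 2.46 (SE 0.39), with an unadjusted p of 0.00235 and an adjusted p of 0.518 in edgeR's quasi-likelihood test, so that the difference did not pass. In DESeq2 the adjusted p was 3.2e-05. The ratio of summed counts, scaled by library total, was 5.46, with an exact 95% binomial interval of 4.44 to 6.76 that covers counting error only. With control replicate 1 left out the log2 fold change was 3.02, and with control replicate 2 left out 2.08.

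Other loci near Plagl2 did not share its values. Within 200 kb, 12 other loci were listed and 7 tested, and 0 of these had an unadjusted p under 0.05 in edgeR, nor did any pass by adjusted p. Their log2 fold changes ran from -0.61 to 0.51. No transcript of another listed locus overlapped it. The summed level of the endothelial and mural markers, 3 of 8 listed, did not overlap between groups either, with sums of 4.37 and 8.40 CPM in the controls, against 32.5 and 25.5 CPM after OGD, mainly through Abcc9, which had 6, 17, 85 and 54 counts. The other listed loci of these markers, Tek and Pecam1, had 2, 2, 1 and 1 counts and 4, 2, 0 and 6 counts. Of the 2 tested neuron markers, Syn1 had 2, 1, 98 and 45 counts and Gria2 had 223, 275, 187 and 222, a log2 fold change of -0.23. The edgeR adjusted p was 1.00 for Abcc9 and 0.218 for Syn1. The part of these cell types in the Plagl2 difference was not tested. In bulk samples, more cells of a type and more RNA per cell cannot be told apart.

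**Figure D1:**
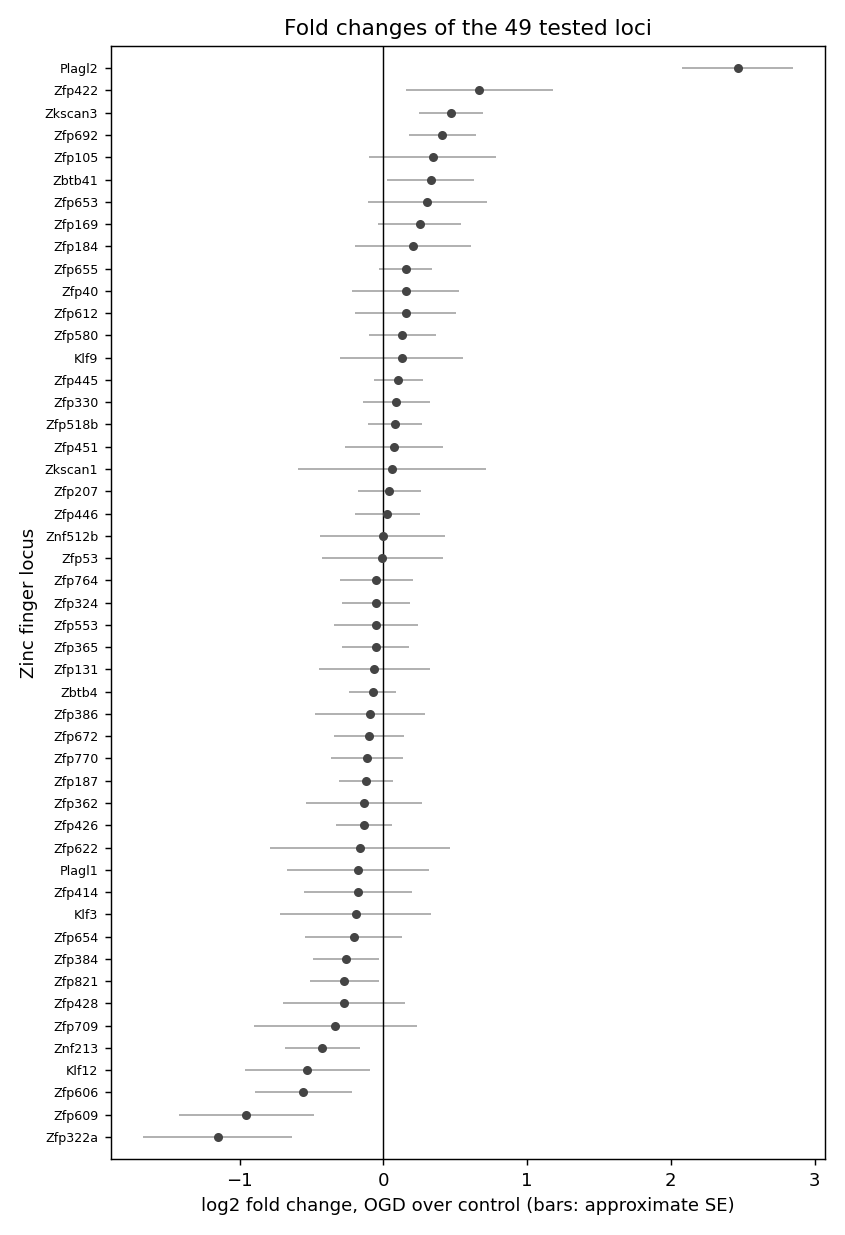
Log2 fold change of OGD over control at the 49 tested zinc finger loci (x axis), 1 locus per line (y axis), with bars for the approximate standard error from edgeR. Plagl2 stands at 2.46, and the other 48 loci lie between -1.15 and 0.67.

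The other Plag member, Plagl1, is an imprinted gene whose product restrains cell growth. Its transcript (chromosome 1, 7219545 to 7252366) had 99 and 169 counts in the controls, against 82 and 146 after OGD. The number 2 library was the higher in each group, and the groups overlapped. The log2 fold change was -0.17 (SE 0.49, edgeR adjusted p = 1.00). With a library left out it ran from -0.74 to 0.35. An unnamed StringTie transcript overlapping Plagl1 had 114, 201, 72 and 140 counts, with the same order of libraries.

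Among partners and targets listed for the Plag family, 3 loci were tested and 0 passed in either direction. The transcript at Igf2, the gene of the growth factor, had 5 and 7 counts in the controls, against 13 and 16 after OGD, a log2 fold change of 1.31 with an unadjusted p of 0.0471 and an adjusted p of 1.00 in edgeR. Those at Igf2r, the receptor that clears it, and at Rchy1 had log2 fold changes of -0.44 and -0.09. The median of the 3 was -0.09, against -0.0023 over all tested loci.

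Of the 4 Klf loci, 3 were tested and 0 passed. Klf12, a repressor, had 18 and 25 counts in the controls, against 18 and 11 after OGD. Klf3, which represses through CtBP proteins, had 24, 16, 11 and 22 counts. Klf9, a factor induced by glucocorticoid and thyroid hormone, had 13, 18, 20 and 13. The groups overlapped at each of the 3, and the log2 fold changes were -0.53 (SE 0.44), -0.19 (SE 0.52) and 0.13 (SE 0.43). Klf15, a metabolic regulator, had 6 counts in OGD 1 and 0 in the other 3 libraries. Of the Klf partners and targets, Mef2c and Wwp1 were tested, with log2 fold changes of 0.35 and 0.22.

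Factors with a BTB domain included Zbtb4, which binds methylated DNA and had the highest mean level of all members. On the deposited FPKM scale, which divides by transcript length, Zbtb4 stood at 28.1 and 25.2 in the controls, against 27.8 and 22.3 after OGD. Its counts were 1858 and 1759 in the controls, against 1837 and 1481 after OGD, a log2 fold change of -0.07 (SE 0.16). The groups overlapped. With a library left out the value ran from -0.14 to 0.0089. Zbtb41 had 77, 47, 82 and 67 counts, a log2 fold change of 0.33 (SE 0.30). Zbtb9 and Zbtb8os had too few counts to be tested.

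Partners of the BTB factors gave 4 tested loci, 2 higher and 2 lower, of which 0 passed. Hdac4, a histone deacetylase gene, had 4 and 2 counts in the controls, against 14 and 10 after OGD (log2 fold change 2.01, unadjusted p = 0.0186, edgeR adjusted p = 1.00). The median of the 4 was 0.12.

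Levels of the other leading members are also best compared by FPKM, summed over the transcripts of a locus. Zfp580 followed Zbtb4 with 28.8 and 20.5 in the controls, against 31.2 and 22.0 after OGD, so that these 2 loci overlapped in level. Zfp445, a KRAB factor that guards imprints together with Zfp57, came next with 18.2, 13.7, 18.1 and 15.6. Its counts were 1476, 1169, 1465 and 1264, the second largest after Zbtb4. The pair of Zbtb4 and Zfp445 held 35.5% to 38.9% of all zinc finger counts in each library.

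Below these, Zfp365, Zfp426, Plagl1, Zfp655, Zfp187 and Zfp362 had mean FPKM of 12.5, 12.4, 11.9, 11.6, 10.7 and 10.3. Their ranges over the 4 libraries overlapped, so no order among them is given. Those of Zfp365, Zfp426 and Plagl1 reached into the range of Zfp445. Zfp365 encodes a protein of the centrosome. It was at 14.3 and 13.9 FPKM in control and 13.7 and 8.07 FPKM after OGD. The FPKM of OGD 2 was the lowest, and came with a short transcript of 269 bases. That transcript had 41 and 31 counts in the controls, against 24 and 2 after OGD. The longer transcript of 2247 bases had 459, 567, 565 and 437 counts. Over the whole locus the counts were 500 and 598 in the controls, against 589 and 439 after OGD. In CPM the groups overlapped, and the log2 fold change was -0.05 (SE 0.23). In the fit of single transcripts the short one had a log2 fold change of -1.44 with an unadjusted p of 0.205.

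**Figure D2:**
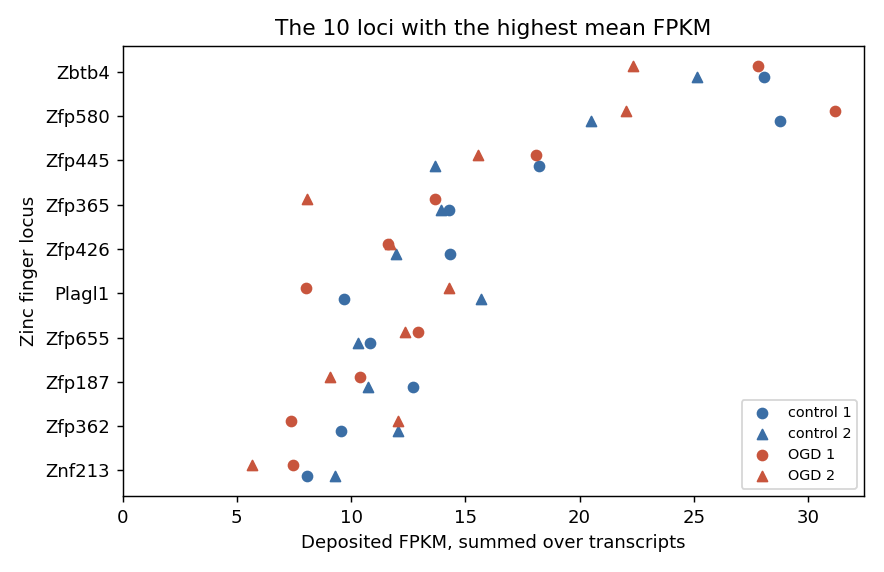
Deposited FPKM (x axis, from 0) of the 10 zinc finger loci with the highest mean, 1 point per library, circles for replicate 1 and triangles for replicate 2, control in blue and OGD in red. Zbtb4 and Zfp580 lie between 20.5 and 31.2, and at Zfp655 both OGD points, 12.9 and 12.4, lie above both controls, 10.8 and 10.3.

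Of the tested members, 13 of 49 (26.5%) had CPM in both OGD libraries on 1 side of both controls, against 28.1% of all tested loci. On the higher side there were 5 (10.2%, against 14.0% of loci), namely Plagl2, Zfp422, Zfp655, Zfp692 and Zkscan3. On the lower side there were 8 (16.3%, against 14.1%), namely Zfp187, Zfp322a, Zfp384, Zfp426, Zfp606, Zfp609, Zfp821 and Znf213. These shares are near those of all loci, and apart from Plagl2 each of the 13 had an edgeR adjusted p of 1.00.

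Zkscan3, a repressor of autophagy genes, had 69 and 67 counts in the controls, against 98 and 84 after OGD. This was 26.0 ± 1.17 and 36.1 ± 1.38 CPM (SD, n = 2), a log2 fold change of 0.47 (SE 0.22, unadjusted p = 0.0975 in edgeR). Its relative Zkscan1 had 9, 25, 22 and 13 counts, and its groups overlapped. Zfp692, known as AICAR response element-binding protein, had 188 and 135 counts in the controls, against 227 and 185 after OGD, a log2 fold change of 0.41 (SE 0.23). Of its 3 transcripts, that of 1261 bases had 130, 85, 171 and 143 counts, and that of 686 bases 55, 44, 50 and 40.

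Zfp655, whose product binds Vav, measured 86.0 ± 1.08 CPM in the controls, against 95.8 ± 0.819 CPM after OGD (SD, n = 2). The 2 values within each group were close, and the log2 fold change was 0.16 (SE 0.19). Its transcript of 396 bases had 50 counts in each control and 68 in each OGD library. Zfp422 had 10 and 21 counts in the controls, against 24 and 24 after OGD. Its log2 fold change of 0.67 (SE 0.51) ran from 0.19 to 1.38 when a library was left out. The remaining members named for a small p on the higher side, Zfp169, Zfp105 and Zfp653, had log2 fold changes of 0.25, 0.34 and 0.31, and their groups overlapped.

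On the lower side the most negative value was at Zfp322a, with 17 and 11 counts in the controls, against 8 and 4 after OGD. The log2 fold change was -1.15 (SE 0.52, unadjusted p = 0.0850 in edgeR). Zfp609, whose product binds the cohesin loader and the Integrator complex, had 22 and 17 counts in the controls, against 7 and 12 after OGD, a log2 fold change of -0.95 (SE 0.47). Both loci rest on few counts. Together with Plagl2, Zfp322a makes 2 of 49 members (4.08%) at 2-fold or more, against 5.62% of all tested loci, 2.86% higher and 2.76% lower.

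Zfp606 had 23 counts in each control and 15 in each OGD library, a log2 fold change of -0.56 (SE 0.34). Znf213, current symbol Zfp213, had 140 and 168 counts in the controls, against 126 and 97 after OGD, a log2 fold change of -0.42 (SE 0.26). Within Znf213 the transcripts differed in their values. The unspliced transcript of 699 bases had 85 and 87 counts in the controls, against 54 and 50 after OGD, while that of 607 bases had 18, 39, 39 and 21.

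Zfp384, a nuclear matrix factor, measured 34.1 ± 0.180 CPM in the controls, against 28.5 ± 2.85 CPM after OGD (SD, n = 2). Zfp426 measured 81.4 ± 0.843 and 74.2 ± 5.51 CPM, and Zfp821 29.6 ± 0.599 and 24.5 ± 2.76 CPM. Their log2 fold changes were -0.26, -0.13 and -0.27. The control values of each lay close together, and the edgeR test, which draws its estimate of spread from all loci, gave unadjusted p of 0.315, 0.530 and 0.316. Zfp187, current symbol Zscan26, had 261, 220, 227 and 198 counts, and Zfp428, whose groups overlapped, had 17, 24, 20 and 13.

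**Figure D3:**
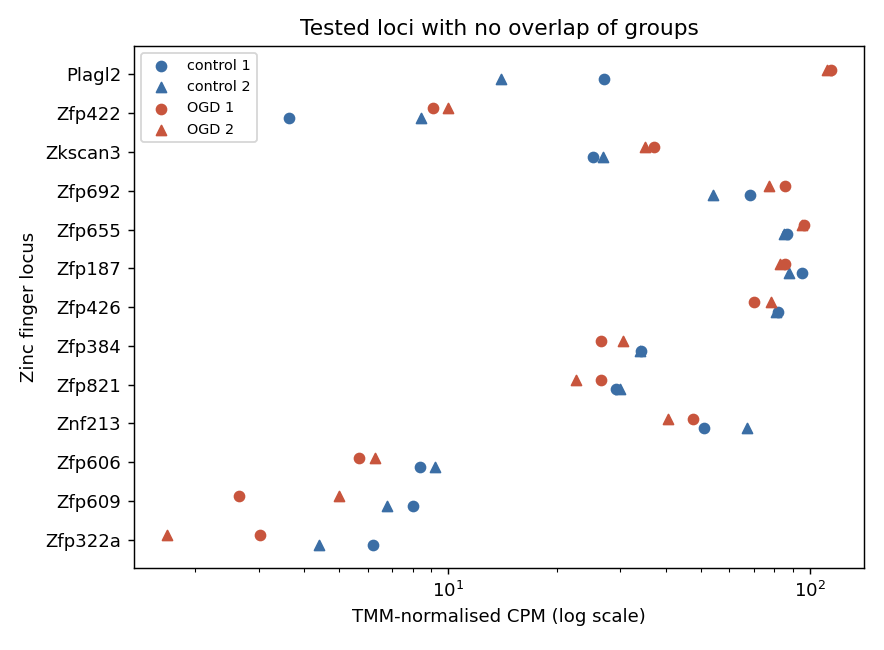
CPM by library (x axis, log scale) of the 13 tested zinc finger loci whose groups did not overlap, circles for replicate 1 and triangles for replicate 2, control in blue and OGD in red. The 112 and 115 CPM of Plagl2 after OGD stand far to the right of its controls at 14.0 and 27.0 CPM, while at Zfp187 and Zfp426 the groups nearly touch.

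As a group, the tested members were centred near 0. Of the 49, 21 had a log2 fold change above 0 and 28 below, with a median of -0.05, against -0.0023 over all tested loci. The size without its sign had a median of 0.16, against 0.22. It was under 0.5 at 43 members (87.8%), against 78.9% of loci. It was smaller than its own standard error at 37 of 49. The share of all loci was not computed, so this cannot be called particular to the members. The members were also more deeply counted, with a median of 302 counts over the 4 libraries against 198. With at least 100 counts, 35 of 36 members (97.2%) were under 0.5, against 85.0% of loci, with median sizes of 0.13 and 0.18. These members also varied less within groups than the loci did. Their median standard error was 0.25, against 0.30. The median log2 difference was 0.27 between controls, against 0.35, and 0.20 between OGD libraries, against 0.32. A weaker response to OGD cannot be read from these shares. The median standard error of the 49 was 0.34. On simulated counts edgeR called 0 of 50 loci changed 2-fold and 11 of 50 changed 4-fold. Changes well above that standard error could therefore be missed at this depth and number of libraries.

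The sum over all 77 members was 3148 and 3007 CPM in the controls, against 3226 and 3231 CPM after OGD. Both OGD libraries were above both controls, and an exact permutation test of 2 against 2 can give no two-sided p below 0.333. Without Plagl2, Zfp629 and Zfp704 the sums were 3087 and 2991 CPM in the controls, against 3109 and 3008 CPM after OGD, and the groups overlapped. These loci were picked after their values were seen, so the overlap without them is description and not a test.

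The spread within the groups was set by single libraries at a few loci. Zfp629 (chromosome 1, 199057773 to 199059254) had 4 and 3 counts in control, 4 in OGD 1 and 265 in OGD 2. Zfp704 (chromosome 2, 94544542 to 94551706) had 90 counts in control 1, 2 in control 2, and 3 and 2 after OGD. Both encode zinc finger proteins, and both were singled out after their values were seen. They did not have enough counts in 2 libraries to be tested, and a fold between groups would rest on 1 library. Of members with at least 20 counts in a library, these 2 of 49 (4.08%) had a highest library at 10 times the next or more, against 2.07% of loci.

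Neighbours did not follow these single values. A transcript 32 bases from Zfp629 had 303, 276, 336 and 279 counts, and one about 7 kb from Zfp704 had 513, 488, 428 and 375. Within 200 kb of Zfp629, 13 loci were tested with log2 fold changes from -1.02 to 0.54, 1 of them at an unadjusted p under 0.05 in edgeR, and near Zfp704 there were 3, from -0.26 to 0.03. Zfp219 had 19, 0, 5 and 7 counts. Zbtb8os had 12 and 10 counts in the number 1 libraries and 0 in both number 2 libraries, which allows up to 3 counts in each.

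**Figure D4:**
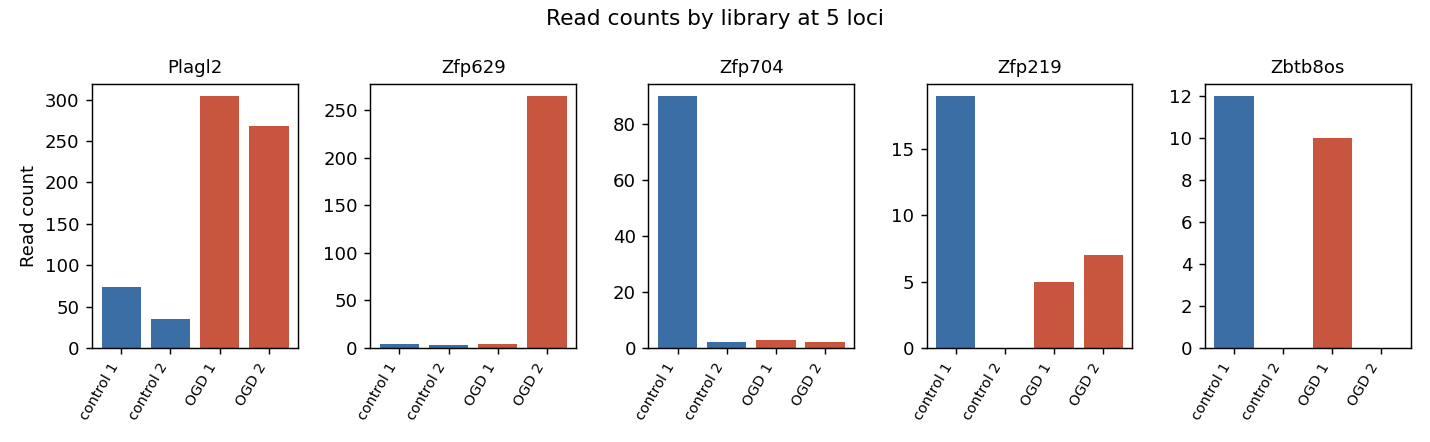
Read counts (y axis, from 0, a scale of its own in each panel) in the 4 libraries at 5 zinc finger loci, control bars in blue and OGD bars in red. Plagl2 is high in both OGD libraries (304 and 268), Zfp629 in OGD 2 (265), Zfp704 and Zfp219 in control 1 (90 and 19), and Zbtb8os in both number 1 libraries (12 and 10).

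Loci that divide by replicate number included Zfp105, with 101 and 119 counts in the number 1 libraries and 50 and 65 in the number 2 libraries, Zfp40, with 58 and 65 against 37 and 37, Znf142, with 9 and 7 against 4 and 2, and Plagl1 above. What the number stands for is not in the labels. For comparison, the hypoxia target Vegfa had 952 and 756 counts in the number 1 libraries and 2142 and 2197 in the number 2 libraries.

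Where several transcripts were listed, 49 transcripts of 20 loci could be compared. Of these, 39 were tested singly, 0 passed (0.00918% of all tested transcripts did) and 2 had an unadjusted p under 0.05 in edgeR. The first was the unspliced Znf213 transcript above, with a log2 fold change of -0.67 and an unadjusted p of 0.0428 (edgeR adjusted p = 1.00). The other was a Zfp187 transcript of 389 bases with 23 and 24 counts in the controls, against 10 and 11 after OGD, a log2 fold change of -1.10 and an unadjusted p of 0.0354 (edgeR adjusted p = 1.00). The main Zfp187 transcript of 954 bases had 232, 184, 213 and 185 counts. With Plagl2, 3 of 68 tested member transcripts (4.41%) were under 0.05, against 2.68% of all tested transcripts. At Zfp414 the transcript of 1845 bases had 90, 70, 38 and 68 counts and that of 767 bases 24, 20, 26 and 39.

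Zinc finger genes often lie in clusters, and 27 of the 77 members lay within 1 Mb of another. The largest group was on chromosome 17 from 44025259 to 45262805, with Zfp322a, Zfp184, Znf307, Zfp187 and Zkscan3. Of its 4 tested loci, 2 were above 0 and 2 below. The nearest pair with both loci tested, Zfp692 and Zfp672 on chromosome 10 (43745574 to 43760973), had log2 fold changes of 0.41 and -0.10. The 4 loci on chromosome 1 from 198683952 to 199059254 included Zfp629, and the tested loci there, Zfp553 and Zfp764, were both at -0.05. Of the transcripts of Zfp40, 1 lay over 2 Mb from the other 3, with 4, 0, 8 and 4 counts.

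The cofactors of KRAB zinc finger proteins were next compared, with 6 tested loci, 2 higher and 4 lower, and 0 passed. Trim28, the corepressor that KRAB domains bind, had 96 and 62 counts in the controls, against 85 and 92 after OGD. The heterochromatin protein loci Cbx1 and Cbx3 had 26, 20, 11 and 15 counts and 26, 37, 35 and 25. Over the 6 tested loci the median log2 fold change was -0.12. Of other zinc finger factors listed by name, 10 were tested, 7 higher and 3 lower, and 0 passed, with a median of 0.19. Gli3, a Hedgehog effector, had 217, 172, 221 and 195 counts, and Ctcf, the insulator protein gene, 32, 23, 25 and 40. Prdm2, a histone methyltransferase gene, was highest at a log2 fold change of 1.12 (unadjusted p = 0.0757), with 10, 19, 36 and 26 counts. Partners and targets of Zeb factors gave 6 tested loci, 2 higher and 4 lower, 0 passed, with a median of -0.12. The hypoxia-inducible factor targets gave 4 tested loci, 1 higher and 3 lower, 0 passed, with a median of -0.07. Among them Lox had 4 and 3202 counts in the controls, against 4 and 2684 after OGD (SE 3.06). Vegfa had 952 and 2142, against 756 and 2197 (SE 0.72). Both divided by replicate number, so their signs and the median say little about OGD.

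The 28 members that were not tested had 3 to 276 counts over the 4 libraries, with a median of 21, and 26 of them had under 50. They included Zfhx2 with 1, 4, 1 and 5 counts, Zfp536, a repressor of neuronal differentiation, with 1, 1, 0 and 3, Zfp804a with 2, 0, 3 and 5, and Zfp787 with 5, 4, 10 and 13. With no filter on low counts all 77 members entered the edgeR test, and 0 passed by adjusted p. Of the members on the list of zinc-binding proteins that are not classical DNA-binding factors, Zfp330 and the ribosome biogenesis gene Zfp622 were tested, with log2 fold changes of 0.09 and -0.16, and Zfp385b was not.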

How the data were processed

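LncRNAs were measured by RNA sequencing in 4 libraries, 2 per group, grouped by sample title. The authors deposited 1 table per library with raw read counts and FPKM per transcript, per the file headers. HISAT2, StringTie and mouse build mm9 are named in the submitters' processing notes. The tables hold rat identifiers, so their coordinates are printed without a build. The sources used here do not give the counter or the strand setting. In each library FPKM implied 1 total, 24934040 to 26371055 reads, of which listed counts were 9.98% to 10.6%.

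Counts were summed per gene name and chromosome. Names came from the Ensembl column, else the AceView name, else the transcript identifier. The main test was edgeR 4.0.16 under R 4.3.3 (filterByExpr, TMM, quasi-likelihood F test on group alone, Benjamini-Hochberg adjusted p under 0.05 over 9898 loci). Standard errors are the absolute log2 fold change over the square root of F. DESeq2 1.42.0 was an alternative. CPM use TMM-adjusted totals of tested loci. Intervals and floors (3 counts) cover counting error only.

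Named members are, per direction, the 10 with the smallest p, the 10 with the highest FPKM, Klf, Plag, Zkscan and similar members with at least 20 counts, and 5 that divide by replicate number. Members, lists and rules were chosen with earlier results of these data known. On simulated counts for the 9898 loci, edgeR called 0% of 50 loci changed 2-fold, 22% at 4-fold and 100% at 16-fold, and 4 of 9698 unchanged loci. The simulated spread followed the trend over all loci, with no difference by replicate number and no spread particular to a locus. The shares called in the data can therefore be lower. Syn1, with a log2 fold change of 5.50, had an edgeR adjusted p of 0.218. Promoters are from RefSeq (GRCr8). Figures used matplotlib 3.10.9.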

Additional observations from a re-analysis of the deposited data

How the results depend on the processing

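The count of 0 changed zinc finger loci became 1, at Plagl2, with DESeq2 and with an unadjusted p under 0.05 and at least 2-fold. It stayed at 0 under the other planned settings, with each library left out, and with overlapping loci merged, an alternative chosen after seeing the data. At an unadjusted p under 0.05 these settings gave 1 to 3 members or member transcripts. The count of 6 among all loci became 60 with DESeq2, and 187 with an unadjusted p under 0.05 and at least 2-fold. It was 10 with overlapping loci merged and 1 with transcripts as deposited. With other locus names it was 8, of which 4 were shared with the 6. It was 0 without a filter, under a stricter filter (group mean of 20 counts or more) and under the replicate block. The replicate block gave 382 loci at an unadjusted p under 0.05 in edgeR. Leaving out each library gave 0 to 0 loci, with the lone library taken to share the spread of the other pair, and 286 to 406 at an unadjusted p under 0.05. The cause was not tested. With the replicate block Plagl2 had a log2 fold change of 2.53 (edgeR adjusted p = 0.390). As a check of pairing, r between the deviations of equal-numbered libraries was 0.213 across all loci and -0.0489 across the zinc finger loci. Of 359 values of 29 named members, 338 kept direction and side, 1 newly passed (Plagl2 with DESeq2) and 20 changed sign, all with a library left out: Klf3 between -0.86 and 0.29, Klf9 between -0.14 and 0.46, Plagl1 between -0.74 and 0.35, Zbtb4 between -0.14 and 0.0089, Zfp105 between -0.049 and 0.86, Zfp169 between -0.026 and 0.51, Zfp362 between -0.62 and 0.25, Zfp365 between -0.23 and 0.16, Zfp40 between -0.20 and 0.45, Zfp428 between -0.55 and 0.076, Zfp580 between -0.038 and 0.30, Zkscan1 between -0.53 and 1.07. Loci with several transcripts have no value for transcripts as deposited. A count of 3 limits the loci at 0.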
